A study of Mus musculus with 12 samples.

Results

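A set of 10 genes of bile acid synthesis and of its control by the bile acid receptor FXR was followed in the livers of obese mice after sleeve gastrectomy or matched weight loss. They were chosen by name for their known roles: the enzymes Cyp7a1, Cyp8b1, Cyp27a1 and Cyp7b1, the nuclear receptors Nr1h4 and Nr0b2, the receptor pair Fgfr4 and Klb, and the transporters Abcb11 and Slc10a1. All 10 were present among the 46078 genes of the count table, and all 10 passed the filter on low counts that left 13054 genes for testing.

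Bile acids are made in hepatocytes from cholesterol, by a classic route that begins with Cyp7a1 and an alternative route that begins with Cyp27a1 and continues with Cyp7b1. Cyp8b1 adds the hydroxyl group that makes cholic acid, so its activity sets the proportion of cholic acid to other bile acids. Bile acids bind FXR, the product of Nr1h4, which induces the repressor SHP (Nr0b2) in the liver and the hormone FGF15 in the ileum. FGF15 reaches the liver in portal blood and acts on FGFR4 with its co-receptor beta-klotho (Klb), and both arms lower Cyp7a1 and Cyp8b1. Hepatocytes take bile acids up again through NTCP (Slc10a1) and export them into bile through BSEP (Abcb11).

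The mice were male C57BL/6 (C57BL/6J in the study's methods), 21 weeks old, with diet-induced obesity (DIO) on a high-fat diet, and all had surgery. In the VSG group (vertical sleeve gastrectomy) most of the stomach was removed along its greater curve. Sham-WM mice had sham surgery and were then given less food so that their weight followed that of the VSG mice, and Sham-Ad lib mice had sham surgery and the same diet without restriction. The liver of 4 mice per group, selected from larger groups, was sequenced: mice 3F, 4F, 6F and 10F for Sham-Ad lib, 2F, 9F, 15F and 16F for Sham-WM, and 1F, 8F, 11F and 18F for VSG. The question put by this design is whether sleeve gastrectomy changes the liver beyond what the weight loss does.

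The lowest library total was 15122520 counts on genes and the highest 19384076. Markers of hepatocytes were abundant in every library, albumin (Alb) taking between 7.82% and 9.45% of the counts in Sham-Ad lib, 9.46% and 12.2% in Sham-WM and 4.89% and 9.15% in VSG mice. Of 6 markers of intestinal epithelium and 6 of pancreatic acinar cells, 3 each were at 0 in all 12 libraries. Fabp2 (789 to 2929 counts), Cela1 (195 to 493 counts) and Cela2a (1 to 19 counts) were counted in every library. Values are given as CPM, counts scaled to a common library total with TMM factors, as edgeR's cpm gives them. Fold changes are log2 values from edgeR's quasi-likelihood test with a standard error (SE), and a gene was called at a Benjamini-Hochberg adjusted p under 0.05 over the 13054 genes. In whole liver, fewer cells of a type and less RNA per cell cannot be told apart. The library index numbers are consecutive within each group, so a batch in that order and the treatment cannot be told apart.

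Few of the 10 genes differed between the groups. In VSG against Sham-Ad lib none was called by edgeR, where 0.751% of all genes tested were called; 2 of the 10 (Cyp8b1 and Klb) had an unadjusted p under 0.05, as did 3149 of all genes, and DESeq2 called the same 2, beside 8.42% of its genes. In Sham-WM against Sham-Ad lib none was called, against a background of 6.99%; 1 gene (Fgfr4) had an unadjusted p under 0.05, and DESeq2, which called 9.94% of its genes, called none of the 10. In VSG against Sham-WM 1 gene was called, Fgfr4, which was lower in VSG; the share among all genes was 26.9% with edgeR and 27.8% with DESeq2, which also called Cyp8b1. The share of 1 in 10 members was thus below the background of that comparison. The groups did not overlap for 0 of the 10 genes in VSG against Sham-Ad lib (9.21% of all genes), for Fgfr4 alone in Sham-WM against Sham-Ad lib (17.6%), and again for Fgfr4 alone in VSG against Sham-WM (26.2%).

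The fitted directions leaned towards lower levels in both groups that lost weight. Of the 10 genes, 9 had a negative log2 fold change in VSG against Sham-Ad lib, with a median of -0.21 beside 0.03 over all genes tested, and 8 in Sham-WM against Sham-Ad lib, with a median of -0.31 beside 0.00079. These 2 comparisons share the Sham-Ad lib libraries. In the first, Fgfr4 (-0.02), Nr1h4 (-0.05) and Abcb11 (-0.06) were near 0. With factors for unwanted variation estimated from replicates (RUVs), Cyp27a1, Nr1h4, Abcb11 and Slc10a1 were positive in VSG against Sham-Ad lib. In VSG against Sham-WM 6 were negative, with a median of -0.13 beside 0.03.

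**Figure D1:**
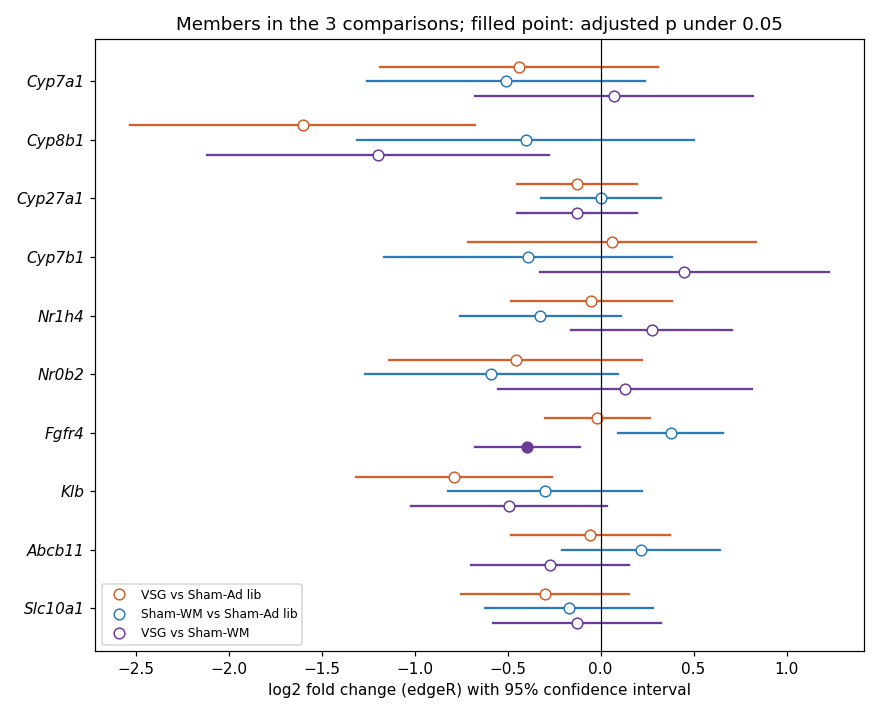
Log2 fold change (x axis) of each of the 10 genes (y axis) in the 3 comparisons, from edgeR, with 95% confidence intervals as lines. The only filled point, for an adjusted p under 0.05, is Fgfr4 in VSG against Sham-WM at -0.39. The intervals of Cyp8b1 and Klb in VSG against Sham-Ad lib and of Cyp8b1 in VSG against Sham-WM also lie below 0. That of Fgfr4 in Sham-WM against Sham-Ad lib lies above 0.

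Cyp7a1, the rate-limiting enzyme of the classic route (ENSMUSG00000028240, 6 exon blocks at chr4:6265612-6275633 of mm10, minus strand), varied widely between mice of 1 group. It stood at 246, 141, 136 and 367 CPM in the Sham-Ad lib mice 3F, 4F, 6F and 10F. The Sham-WM mice had 110, 147, 170 and 198 CPM, and the VSG mice had 110, 98.1, 227 and 223 CPM. All 3 groups overlapped, and within the VSG group mice 11F and 18F lay at about the level of Sham-Ad lib mouse 3F while 1F and 8F were lower. Its log2 fold change was -0.44 (SE 0.35, edgeR adjusted p = 0.45) in VSG against Sham-Ad lib, with a 95% interval from -1.19 to 0.31. Between VSG and Sham-WM it was 0.07 with an interval from -0.67 to 0.82, so that differences up to that size in either direction remained compatible with the data.

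Cyp8b1, the sterol 12-alpha-hydroxylase that makes cholic acid (ENSMUSG00000050445), had the largest fitted change of the 10 genes in both comparisons of VSG. It stood at 442, 155, 335 and 382 CPM in Sham-Ad lib mice 3F, 4F, 6F and 10F, and at 215, 442, 143 and 193 CPM in Sham-WM mice 2F, 9F, 15F and 16F. In VSG mice 1F, 8F, 11F and 18F it was 59.6, 62.7, 177 and 133 CPM. Mice 1F, 8F and 18F were below every sham mouse, whereas 11F lay above 4F and 15F, the lowest mice of the sham groups. The group means were 329 ± 123 CPM (SD, n = 4) for Sham-Ad lib, 248 ± 133 CPM for Sham-WM and 108.3 ± 57.4 CPM for VSG mice.

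The level of Cyp8b1 in VSG was 0.329 of that in Sham-Ad lib (log2 fold change -1.60, SE 0.43, 95% interval -2.53 to -0.67). With edgeR this did not pass the threshold (adjusted p = 0.066), and with DESeq2 it did (adjusted p = 0.019). Against Sham-WM the log2 fold change was -1.20 (SE 0.43, 95% interval -2.12 to -0.28), with an adjusted p of 0.052 by edgeR and 0.045 by DESeq2. The exact two-sided permutation test of mean log2 CPM gave p = 0.057 in both comparisons, where the smallest value that 4 mice against 4 can give is 0.029. Single libraries decided the call: by edgeR, VSG against Sham-Ad lib passed without mouse 4F (adjusted p = 0.021) or 18F (0.0485), and VSG against Sham-WM passed without 4F (0.037), 15F (0.0473) or 11F (0.027). Other fits moved in both directions. Without a filter on low counts the edgeR adjusted p was 0.017 against Sham-Ad lib and 0.022 against Sham-WM. With RUVr factors, which estimate unwanted variation from the residuals of the fit, it was 0.0017 and 0.0022. The edgeR adjusted p rose to 0.21 without 1F (log2 fold change -1.40) against Sham-Ad lib and to 0.18 without 9F (-0.77) against Sham-WM. With RUVs factors, which estimate unwanted variation from replicates, the log2 fold changes were -1.04 (adjusted p = 0.41) and -0.63 (adjusted p = 0.38), and with only the 2 groups compared the edgeR adjusted p was 0.14 and 0.065. Between Sham-WM and Sham-Ad lib the log2 fold change was -0.40 (SE 0.42, adjusted p = 0.64).

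Genes of neutrophils and of the acute phase were followed in the same mice. Of 6 neutrophil genes 5 were tested, and all 5 were called higher in VSG against Sham-Ad lib and against Sham-WM. The summed level of 6 neutrophil genes was 886 CPM in 1F, 362 in 8F, 119 in 11F and 27.2 in 18F, and between 0.378 and 11.96 CPM in the sham mice, with the highest in 4F. In the VSG libraries the defining granule genes Ngp and Camp had between 38 and 3780 counts, and Ly6g was at 0 in 1 of the 4. Summed acute phase genes were between 15123 CPM (18F) and 69204 CPM (1F) in VSG, between 9911 and 36527 CPM in Sham-Ad lib and between 8962 and 10369 CPM in Sham-WM. Mice 1F and 8F, with the highest neutrophil sums, had the lowest Cyp8b1 (59.6 and 62.7 CPM). Mouse 11F had the highest Cyp8b1 of VSG (177 CPM), with a neutrophil sum of 119 CPM and an acute phase sum of 58831 CPM. Mouse 4F had the lowest Cyp8b1 of Sham-Ad lib (155 CPM) and an acute phase sum of 27045 CPM. The sham mouse lowest in Cyp8b1, 15F (143 CPM), had a neutrophil sum of 1.22 CPM and an acute phase sum of 9338 CPM. Mouse 10F, with Cyp8b1 at 382 CPM, had the highest acute phase sum of the sham mice, 36527 CPM. The part of either sum in the level of Cyp8b1 was not tested.

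Cyp8b1 is a gene of 1 exon at chr9:121914356-121916305 of mm10, minus strand. The 250 bases before its start (chr9:121916306-121916555, minus strand; RefSeq, GRCm38.p6) are shown because it is the synthesis enzyme with the largest fitted change, and those of Abcb11 (chr2:69342617-69342866, minus strand) because its transcription by FXR is textbook knowledge. Letters searched on both strands are in capitals: CAAAGTCCA, a binding sequence of the hepatocyte factor HNF4A, in Cyp8b1, and TGACCT, the reverse complement of the nuclear receptor hexamer AGGTCA, in Abcb11.
Cyp8b1: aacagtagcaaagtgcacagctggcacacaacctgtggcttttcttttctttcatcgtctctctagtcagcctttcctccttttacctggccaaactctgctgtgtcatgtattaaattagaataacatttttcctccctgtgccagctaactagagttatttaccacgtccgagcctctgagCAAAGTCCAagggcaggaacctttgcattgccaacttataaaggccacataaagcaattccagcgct
Abcb11: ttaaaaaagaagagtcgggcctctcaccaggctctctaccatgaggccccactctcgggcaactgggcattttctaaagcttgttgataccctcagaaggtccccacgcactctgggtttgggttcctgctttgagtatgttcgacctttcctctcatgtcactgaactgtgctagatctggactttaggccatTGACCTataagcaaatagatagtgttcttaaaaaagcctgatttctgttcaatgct
The HNF4A sequence lies 67 to 59 bases before the start of Cyp8b1 and occurred in 0.384% of 32851 windows of the same length, and the hexamer lies 56 to 51 bases before the start of Abcb11 and occurred in 14% of windows. RefSeq windows were matched for 8 of the 10 genes, all but Cyp7a1 and Cyp7b1. The hexamer also occurred in the window of Nr1h4 and in 1 of 2 windows of Slc10a1. The E-box CACGTG (6.02% of windows) occurred before Nr0b2, and none of the motifs in the windows of Cyp27a1, Fgfr4 or Klb. The Nr1h4 window (chr10:89506659-89506908) and the matching Slc10a1 window (chr12:80968080-80968329) precede RefSeq starts inside the gene positions given here. The Slc10a1 window directly before that gene (chr12:80968706-80968955) held none of the motifs. The NR5A2 sequence CAAGGTCA (1.33% of windows, overlapping the hexamer) and the D-box TTATGTAA (0.819%) were found in none of the 8. Nor was the exact pair of hexamers facing each other across 1 base, which FXR binds (2 windows of 32851). Only exact letters were searched, so sites that differ by 1 letter were not counted. The bases just before TGACCT in Abcb11 read aggccat, where aggcca differs from AGGTCA by 1 letter. A match describes letters only, not binding.

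Cyp27a1, the mitochondrial sterol 27-hydroxylase that opens the alternative route (ENSMUSG00000026170, chr1:74713574-74737892, plus strand, 7 exon blocks), was the steadiest of the enzymes. It was 448, 304, 352 and 411 CPM in Sham-Ad lib mice, 374, 406, 377 and 358 CPM in Sham-WM mice, and 362, 263, 359 and 404 CPM in VSG mice, in the order of mice given above. The ranges overlapped almost entirely, and the coefficient of variation within a group was between 5.25% and 17.2%, against 37.6% to 53.4% for Cyp8b1. The log2 fold change of VSG against Sham-Ad lib was -0.13 (SE 0.15, adjusted p = 0.62, 95% interval -0.45 to 0.20), and that of Sham-WM was -0.00012 with an interval from -0.32 to 0.32.

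Cyp7b1, the oxysterol 7-alpha-hydroxylase of the alternative route (ENSMUSG00000039519, chr3:18071950-18243338, minus strand), was spread most among the Sham-Ad lib mice, at 213, 89.5, 93.4 and 312 CPM. It was 157, 168, 111.2 and 104.3 CPM in Sham-WM and 179, 130, 265 and 166 CPM in VSG mice. No comparison was called: the log2 fold change was 0.06 (SE 0.36) in VSG against Sham-Ad lib, -0.39 (SE 0.36) in Sham-WM against Sham-Ad lib and 0.45 (SE 0.36) in VSG against Sham-WM, with edgeR adjusted p-values of 0.93, 0.59 and 0.37. The sign of the first depended on single mice, since it was -0.18 without 11F and 0.45 without 10F, the lowest and highest values with each library left out in turn.

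**Figure D2:**
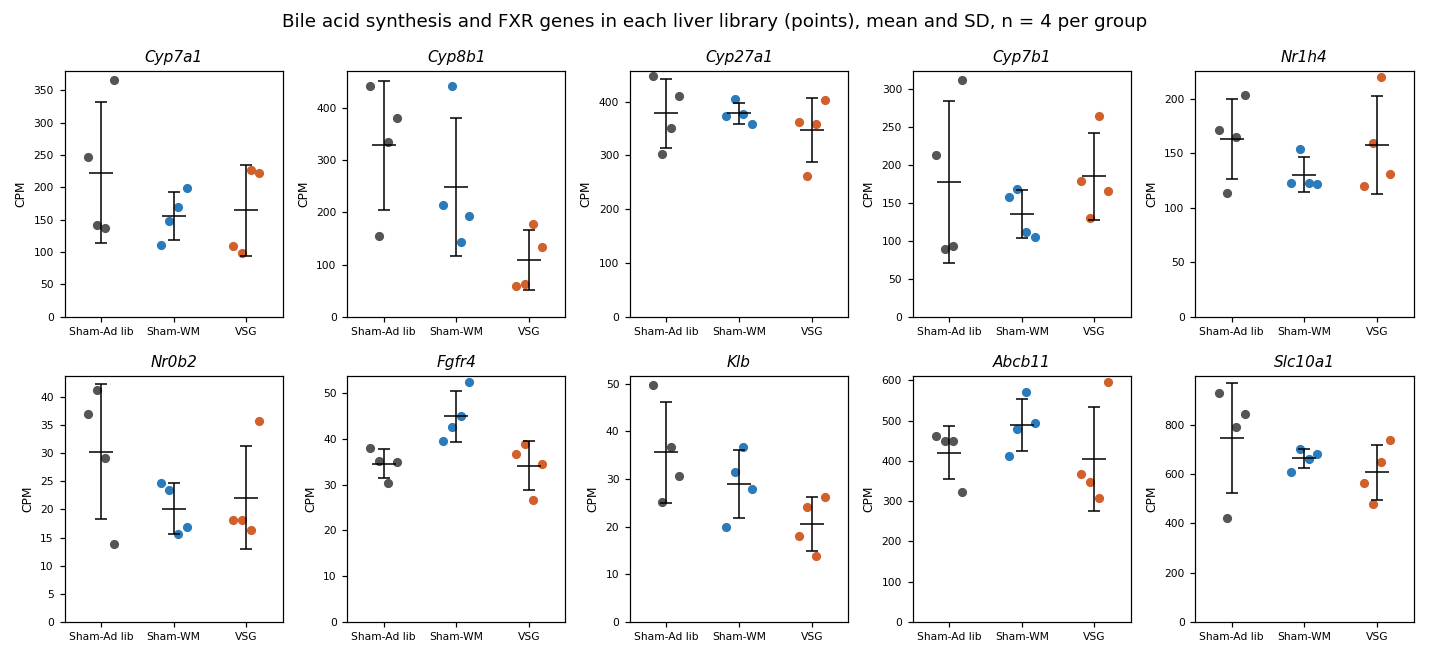
CPM (y axis, from 0) of each of the 10 genes in the 12 libraries, by group (x axis); points are mice, the long dash is the mean and the bar the SD of 4 mice. Fgfr4 is the 1 gene with every Sham-WM mouse (39.6 to 52.5 CPM) above every mouse of the other groups (26.7 to 38.9 CPM), and Cyp8b1 shows 3 VSG mice, at 59.6, 62.7 and 133 CPM, below all sham mice.

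The proportions of the enzymes within a mouse were also compared. The ratio of Cyp7a1 to Cyp8b1, as counts per base of exon in the same library, was 0.260, 0.423, 0.190 and 0.449 in Sham-Ad lib mice and 0.239, 0.155, 0.553 and 0.480 in Sham-WM mice. In VSG mice it was 0.859, 0.731, 0.598 and 0.779, so that all 4 were above all 8 sham mice. The ratio of Cyp8b1 to Cyp27a1 was 0.184, 0.266, 0.551 and 0.369 in VSG, between 0.571 and 1.10 in Sham-Ad lib and between 0.423 and 1.21 in Sham-WM mice, so that VSG did not overlap Sham-Ad lib but overlapped Sham-WM. Between VSG and each sham group, the ratios of Cyp7a1 to Cyp27a1, of Cyp7b1 to Cyp27a1 and of Cyp7a1 to Cyp7b1 overlapped. Ratios of this kind need no scaling between libraries. Those given were chosen with the levels in view and were not tested. The share of other gene pairs whose ratios do not overlap was not computed.

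**Figure D3:**
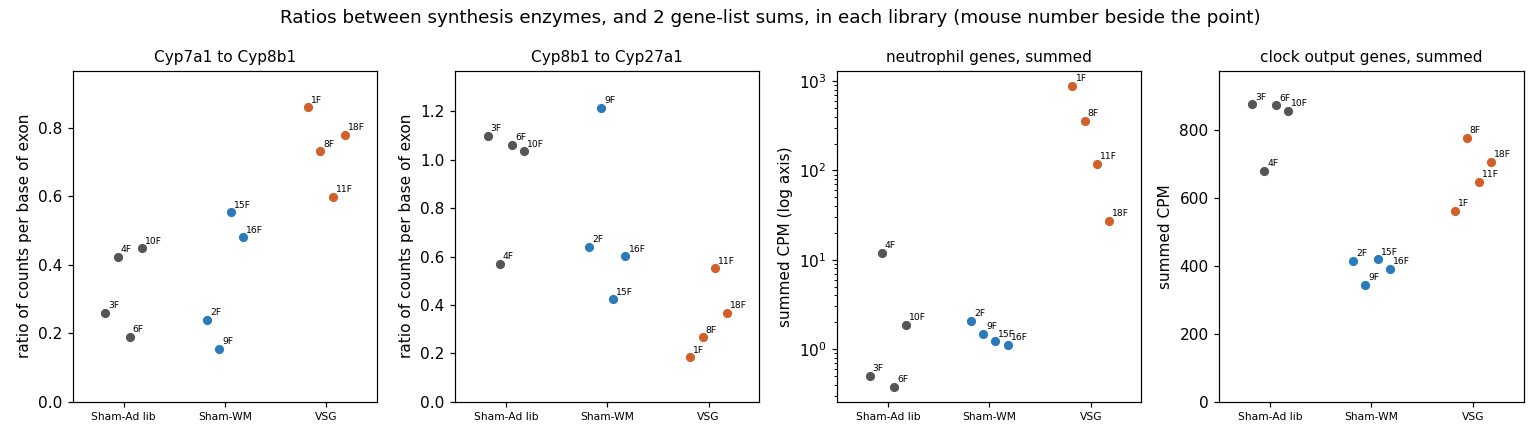
Ratios of counts per base of exon (first 2 panels, from 0) and summed CPM of 2 gene lists, per library, by group. The lists are 6 neutrophil genes (log axis) and 9 genes of the clock and its output (titled clock output, from 0). The mouse number is beside each point. The Cyp7a1 to Cyp8b1 ratio of every VSG mouse (0.598 to 0.859) is above that of every sham mouse (0.155 to 0.553). Neutrophil genes are highest in VSG mice, and the summed level of the 9 clock genes is lowest in Sham-WM mice.

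Nr1h4, which encodes FXR (ENSMUSG00000047638, chr10:89454234-89533585, minus strand), was at similar levels in the 3 groups. It was 171, 113.5, 165 and 203 CPM in Sham-Ad lib, 123, 154, 123 and 122 CPM in Sham-WM and 120, 160, 220 and 131 CPM in VSG mice. Of the Sham-WM mice 3 lay within 2 CPM of each other, and the other groups covered them on both sides. The log2 fold change was -0.05 (SE 0.20, edgeR adjusted p = 0.90, 95% interval -0.48 to 0.38) in VSG against Sham-Ad lib, and -0.32 (SE 0.20, adjusted p = 0.39) in Sham-WM.

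Nr0b2, which encodes SHP and is induced by FXR (ENSMUSG00000037583, chr4:133553376-133556536, plus strand), was 36.9, 41.2, 29.2 and 13.9 CPM in Sham-Ad lib, 24.7, 23.4, 15.6 and 16.9 CPM in Sham-WM and 18.1, 18.1, 16.3 and 35.8 CPM in VSG mice. Mouse 10F was the lowest of all 12 and 18F stood above the other VSG mice, so the groups overlapped. Log2 fold changes were -0.46 (SE 0.32, edgeR adjusted p = 0.38) for VSG and -0.59 (SE 0.32, adjusted p = 0.31) for Sham-WM against Sham-Ad lib, and 0.13 between VSG and Sham-WM, with a 95% interval from -0.55 to 0.81. The ratio of Nr0b2 to Nr1h4 per base of exon was between 0.139 (10F) and 0.737 (4F) in Sham-Ad lib, 0.258 and 0.409 in Sham-WM, and 0.150 and 0.555 in VSG mice. Fgf15, the intestinal hormone downstream of FXR, had 0 counts in all 12 livers, which allows at most 0.155 to 0.198 CPM depending on the library.

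Fgfr4, the receptor for FGF15 (ENSMUSG00000005320, 19 exon blocks at chr13:55152640-55168759, plus strand), was higher in the weight-matched mice than in both other groups. It was 39.6, 42.7, 45.1 and 52.5 CPM in Sham-WM mice, against 38.1, 35.3, 30.3 and 34.9 CPM in Sham-Ad lib and 36.7, 38.9, 26.7 and 34.5 CPM in VSG mice. The lowest Sham-WM mouse stood only just above the highest of the others, VSG mouse 8F. VSG was lower than Sham-WM with a log2 fold change of -0.39 (SE 0.13, edgeR adjusted p = 0.040, 95% interval -0.68 to -0.11), and DESeq2 gave -0.42 with an adjusted p of 0.024. Sham-WM against Sham-Ad lib gave 0.38 (SE 0.13), which was not called (edgeR adjusted p = 0.10), and VSG against Sham-Ad lib gave -0.02 (SE 0.13, 95% interval -0.30 to 0.26). The exact two-sided permutation test gave 0.029, its smallest possible value, in both comparisons with Sham-WM.

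The call for Fgfr4 was near the threshold. It was lost when mouse 9F (edgeR adjusted p = 0.055), 10F (0.056), 18F (0.057), 1F (0.057), 15F (0.080), 11F (0.0813) or 16F (0.12) was left out, and the log2 fold change of VSG against Sham-WM stayed between -0.48 and -0.29 over the 12 such fits. Without mouse 11F the comparison of Sham-WM with Sham-Ad lib passed (adjusted p = 0.048). Of 8 hepatocyte markers 2 were also called lower in VSG than in Sham-WM, beside 26.9% of all genes called in either direction. They were Alb, by a log2 value of -0.73 (edgeR adjusted p = 0.029), and Cps1, by -0.83 (adjusted p = 0.017). By sign alone 2 of the 8 were higher and 6 lower. The part of hepatocyte content in the level of Fgfr4, or of the other genes lower in that comparison, was not tested. Of 9 genes of the circadian clock and its output, 5 were called lower in Sham-WM than in Sham-Ad lib, beside 6.99% of all genes called in either direction. Dbp was among the 5 (-3.35), while Per1 (-0.04, edgeR adjusted p = 0.96) and Per2 (0.56, adjusted p = 0.17) were not. The sum of the 9 was between 344 and 419 CPM in Sham-WM, 680 and 875 CPM in Sham-Ad lib and 561 and 777 CPM in VSG mice. The sum of 4 other clock genes, Arntl among them, was between 74.4 and 134 CPM in Sham-WM and between 36.1 and 56.1 CPM in the other mice. The part of feeding time or clock phase in the level of Fgfr4 was not tested.

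Klb, the co-receptor beta-klotho (ENSMUSG00000029195, chr5:65348314-65384007, plus strand), was 49.8, 25.2, 36.8 and 30.6 CPM in Sham-Ad lib, 19.8, 31.5, 36.7 and 27.9 CPM in Sham-WM and 18.0, 24.1, 13.9 and 26.2 CPM in VSG mice. Of the VSG mice 3 were below every Sham-Ad lib mouse, and 18F overlapped 4F. The level in VSG was 0.578 of that in Sham-Ad lib (log2 fold change -0.79, SE 0.25, 95% interval -1.32 to -0.26), with an adjusted p of 0.090 by edgeR and 0.030 by DESeq2. The exact two-sided permutation test gave p = 0.057. By edgeR it passed without mouse 4F (adjusted p = 0.042) or 18F (0.048), whereas without 3F the log2 fold change was -0.59 (adjusted p = 0.25) and with RUVs factors -0.23 (adjusted p = 0.81). It passed without a filter on low counts (edgeR adjusted p = 0.0485) and with RUVr factors (0.0029). Against Sham-WM the log2 fold change was -0.49 (SE 0.24, adjusted p = 0.15), and that of Sham-WM against Sham-Ad lib was -0.30 (SE 0.24, adjusted p = 0.53). Receptor and co-receptor thus had different orders: Fgfr4 was highest in Sham-WM, and the mean of Klb was 35.6 ± 10.6 CPM (SD, n = 4) for Sham-Ad lib, 29.0 ± 7.09 CPM for Sham-WM and 20.5 ± 5.63 CPM for VSG mice.

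Abcb11, the bile salt export pump (ENSMUSG00000027048, 31 exon blocks at chr2:69238282-69342616, minus strand), was 461, 450, 449 and 322 CPM in Sham-Ad lib, 412, 479, 571 and 495 CPM in Sham-WM and 368, 348, 307 and 595 CPM in VSG mice. VSG mouse 18F was the highest of all 12 while the other VSG mice were among the lowest, together with 10F. Log2 fold changes were -0.06 (SE 0.20, edgeR adjusted p = 0.88) for VSG against Sham-Ad lib, 0.22 (SE 0.20, adjusted p = 0.58) for Sham-WM against Sham-Ad lib and -0.27 (SE 0.20, adjusted p = 0.32) for VSG against Sham-WM. Without mouse 18F the last became -0.52 and was called (adjusted p = 0.028). The predicted genes Gm13613 and Gm13614 overlap its exons on the opposite strand by 136 and 19 bases; their highest count in any library was 9 and 2.

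Slc10a1, which encodes the uptake transporter NTCP (ENSMUSG00000021135, chr12:80953183-80968705, minus strand), was 929, 422, 792 and 842 CPM in Sham-Ad lib, 609, 701, 662 and 680 CPM in Sham-WM and 561, 479, 647 and 739 CPM in VSG mice. Mouse 4F was the lowest of all, and the other Sham-Ad lib mice were the highest of all. Log2 fold changes against Sham-Ad lib were -0.30 (SE 0.21, edgeR adjusted p = 0.39, 95% interval -0.75 to 0.15) for VSG and -0.17 (SE 0.21, adjusted p = 0.70) for Sham-WM.

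Scaled by exon length, the order of the 10 genes differed little between the 3 groups apart from Cyp8b1. Slc10a1 had the highest mean in each group, at 339 (Sham-Ad lib), 301 (Sham-WM) and 276 CPM per kb (VSG), followed by Cyp27a1 at 174, 174 and 160 CPM per kb. Cyp8b1 came next in both sham groups, at 169 and 127 CPM per kb, and was sixth in VSG at 55.5 CPM per kb, below Cyp7b1, Abcb11 and Nr1h4. Cyp7a1 lay at 53.3, 37.4 and 39.4 CPM per kb and Nr0b2 at 26.8, 17.8 and 19.5 CPM per kb. Fgfr4 and Klb were lowest, at 9.78, 12.7 and 9.65 and at 7.83, 6.37 and 4.52 CPM per kb. Neighbours in this order mostly overlapped over the mice: of the 9 steps, the ranges were apart at 1 step in Sham-Ad lib (Nr0b2 above Fgfr4), at 5 steps in Sham-WM and at 3 steps in VSG, where Slc10a1 stood above Cyp27a1, Nr0b2 above Fgfr4 and Fgfr4 above Klb.

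**Figure D4:**
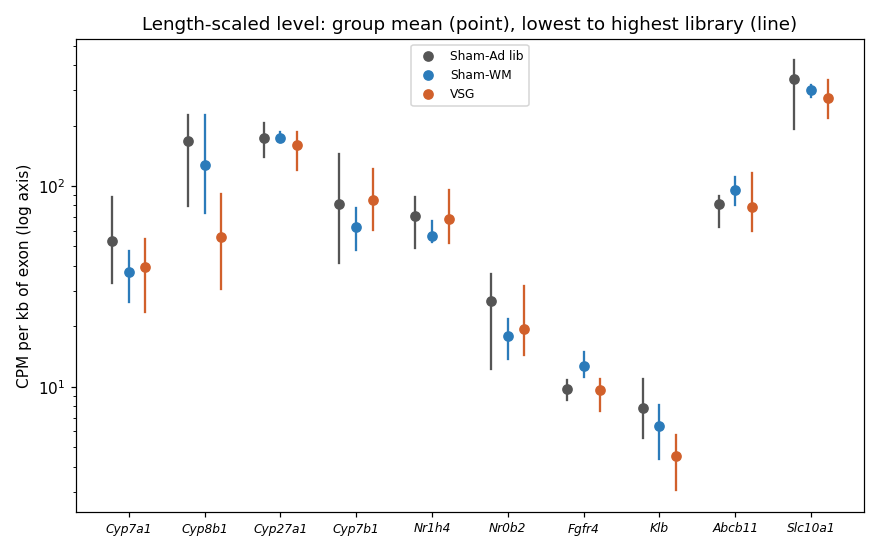
CPM per kb of exon (log axis) of the 10 genes (x axis) in the 3 groups; points are means of 4 mice and lines run from the lowest to the highest mouse. Cyp8b1 falls from 169 and 127 CPM per kb in the sham groups to 55.5 in VSG, while Slc10a1 and Cyp27a1 stay the 2 highest in every group.

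Across the 12 libraries the members did not move as 1 group. Pearson correlations of log2 CPM over the 45 pairs of genes ranged from -0.61 (Nr1h4 with Abcb11) to 0.84 (Cyp27a1 with Slc10a1). Slc10a1 was also at 0.71 with Cyp8b1 and 0.68 with Cyp7a1, and Cyp7b1 at 0.68 with Nr1h4, whereas Nr0b2 was at -0.12 with Cyp7a1 and 0.22 with Cyp8b1, and Fgfr4 at 0.36 with Klb. The 12 points share 3 treatment groups and the scaling of each library, so these values are descriptions. Mice 10F and 11F had the lowest TMM factors (0.946 and 0.879). The same mice had the highest Nr1h4 (203 and 220 CPM) and Cyp7b1 (312 and 265 CPM) and the lowest Abcb11 (322 and 307 CPM). Correlations without them were not computed. Outside the list, the gene most like each member over the 12 libraries was Aldh9a1 for Cyp8b1 (r = 0.96), Fermt2 for Fgfr4 (0.96), Pgap1 for Klb (0.97), Bbs10 for Nr1h4 (0.97), Nedd1 for Abcb11 (0.92) and Grsf1 for Slc10a1 (0.90). It was Lpin2 for Nr0b2 (0.88), Mup7, a major urinary protein gene with near-identical copies, for Cyp7b1 (0.88), Mettl13 for Cyp7a1 (0.85) and Tm7sf2, an enzyme of cholesterol synthesis, for Cyp27a1 (0.85), each the highest of 13054 genes less those with a mean log2 CPM under 1.

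Of 57 other genes of bile acid metabolism, 49 were tested. None was called in VSG against Sham-Ad lib, 6 (4 higher and 2 lower, 12.2%) were called in Sham-WM against Sham-Ad lib, and 14 (8 higher and 6 lower, 28.6%) in VSG against Sham-WM, beside the shares of all genes given above. Their median log2 fold changes were -0.02, -0.06 and -0.02. DESeq2 called 9, 9 and 15 of them. With RUVs factors for unwanted variation, Slc27a2, Slc10a2 and Sdc1 stayed among the calls in VSG against Sham-WM and the other 11 of the 14 did not.

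Among enzymes that finish bile acids, Cyp2c70, which makes the muricholic acids of mice, rose in Sham-WM against Sham-Ad lib. It was between 204 and 378 CPM in Sham-Ad lib and between 433 and 518 CPM in Sham-WM mice (log2 fold change 0.88, SE 0.20, edgeR adjusted p = 0.018); in VSG mice it was between 300.5 and 463 CPM and did not pass against Sham-Ad lib (0.63, adjusted p = 0.091). The call was lost without mouse 3F, 4F, 6F or 16F, with an adjusted p of at most 0.057. In VSG against Sham-WM, of 14 enzymes tested 4 were called, beside 26.9% of all genes, 3 higher and 1 lower; by sign alone 6 were higher and 8 lower. Hsd3b7, which acts on 7-alpha-hydroxylated sterols, was higher by 0.52 (SE 0.16, adjusted p = 0.032), the racemase Amacr by 0.42 (SE 0.12, adjusted p = 0.021) and the very long-chain acyl-CoA synthetase Slc27a2 by 0.60 (SE 0.19, adjusted p = 0.033). Akr1d1, the delta4-3-oxosteroid 5-beta-reductase, was lower in VSG, at 198 ± 76.4 against 355 ± 42.9 CPM (SD, n = 4; log2 fold change -0.84, adjusted p = 0.026). These calls were near the threshold for single mice: that of Hsd3b7 was lost without 2F, 15F, 16F, 1F, 11F or 18F (adjusted p of at most 0.091), that of Amacr without 9F or 15F (0.061), that of Slc27a2 without 2F, 9F, 15F, 16F, 11F or 18F (0.086) and that of Akr1d1 without 15F, 16F or 1F (0.072).

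Among 12 tested transporters, the sterol transporter subunit Abcg8 was lower in Sham-WM than in the other groups. It was between 62.0 and 119 CPM in Sham-WM, 149 and 180 CPM in Sham-Ad lib, and 118 and 194 CPM in VSG mice, with log2 fold changes of -0.98 (SE 0.21, edgeR adjusted p = 0.014) in Sham-WM against Sham-Ad lib and 0.96 (SE 0.21, adjusted p = 0.0062) in VSG against Sham-WM. The former was lost without mouse 15F or 16F (adjusted p of at most 0.055). Its partner Abcg5 was called in neither. Slc10a2, the apical sodium-dependent bile acid transporter, is described in the cholangiocytes of the liver. It was lower in VSG than in Sham-WM (13.3 ± 0.975 against 22.7 ± 2.495 CPM, SD, n = 4, log2 fold change -0.77, edgeR adjusted p = 0.010). The call held in all 12 fits that left out a library. Of the other cholangiocyte markers, Krt19 was at -1.63 (edgeR adjusted p = 0.061) and Spp1 at 0.76 (adjusted p = 0.078) in that comparison. Means in VSG and Sham-WM mice were 0.500 and 1.55 CPM for Krt19 and 53.1 and 31.4 CPM for Spp1. Which cells held the Slc10a2 counts was not tested. The part of cholangiocyte content in the level of Slc10a2 was not tested. Slc51b, the beta subunit of the basolateral exporter OST and a target of FXR, had 2, 7, 3 and 3 counts in Sham-Ad lib and 18, 14, 38 and 31 counts in Sham-WM mice (log2 fold change 2.62, SE 0.51, adjusted p = 0.0090), and 7, 15, 14 and 24 counts in VSG mice, where it did not pass (adjusted p = 0.063). Counts this low make the fold change depend on the prior count, and the alpha subunit Slc51a had 0 counts in all 12 libraries.

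Among 16 tested receptors and regulators, Foxa2, a hepatocyte transcription factor, rose in Sham-WM against Sham-Ad lib. It was between 38.6 and 51.5 CPM in Sham-WM and between 20.2 and 25.1 CPM in Sham-Ad lib mice (log2 fold change 1.00, SE 0.17, edgeR adjusted p = 0.0048), and was lower in VSG than in Sham-WM by a log2 value of -0.61 (SE 0.17, adjusted p = 0.020; lost without 15F or 1F, adjusted p of at most 0.063). Fgfr1, another receptor of the family, moved the other way from Fgfr4: it was between 2.96 and 4.35 CPM in Sham-WM and between 4.38 and 14.7 CPM in the other mice, with log2 fold changes of -1.32 (SE 0.34, adjusted p = 0.033) in Sham-WM against Sham-Ad lib and 1.48 (SE 0.34, adjusted p = 0.0078) in VSG against Sham-WM. The former was lost without 4F, 10F, 2F, 15F or 16F, with an adjusted p of at most 0.105. Nr1h2 and Mafg, the LXR beta receptor and a repressor induced by FXR, were higher in VSG than in Sham-WM by 0.32 and 0.26 (adjusted p = 0.041 and 0.043), calls that held in 3 and 2 of the 12 fits with a library left out (for Nr1h2 without 3F, 4F or 11F, for Mafg without 6F or 11F), with an adjusted p of at most 0.12 and 0.11 in the others. Nr5a2, Hnf4a, Rxra and Ppara were called by edgeR in none of the 3 comparisons. Of these, Ppara was near the threshold in VSG against Sham-Ad lib (log2 fold change -0.96, SE 0.24, edgeR adjusted p = 0.063). It was 94.7 ± 38.4 CPM in VSG and 184 ± 38.7 CPM in Sham-Ad lib mice (SD, n = 4).

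Of 8 other genes described as FXR targets, which include Slc51b and Mafg, Fetub and Sdc1 differed in opposite directions. Fetub, a liver-secreted protease inhibitor, was higher in VSG than in Sham-WM (896 ± 102 against 493 ± 37.3 CPM, SD, n = 4; log2 fold change 0.86, edgeR adjusted p = 0.0076). Sdc1, a heparan sulfate proteoglycan, was higher in Sham-WM, at 248 to 341 CPM, than in Sham-Ad lib, at 155 to 238 CPM (0.62, SE 0.15, adjusted p = 0.024; lost without 3F, 6F, 10F, 15F or 16F, adjusted p of at most 0.085), and lower in VSG, at 155 to 186 CPM, than in Sham-WM (-0.76, SE 0.15, adjusted p = 0.0037). For bile acid sulfation, Papss2, which makes the sulfate donor, was lower in VSG than in Sham-WM (208 ± 56.0 against 366 ± 49.6 CPM, SD, n = 4; -0.82, adjusted p = 0.0079). Sult2a8 was the 1 tested sulfotransferase of 5 and was called in no comparison. The acute phase and neutrophil sums given above, and those of 6 Kupffer cell genes (104.1 to 183 CPM in Sham-WM and 389 to 1117 CPM in VSG), differ between the same mice, and their part in these differences was not tested.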

How the data were processed

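Liver poly(A) RNA of 12 mice was sequenced as paired reads from directional libraries. The authors aligned reads to mm10 with TopHat2 2.1.1, counted them per Ensembl gene with featureCounts, and deposited whole-number counts without normalization; the annotation release and strand setting are not given in the sources used here. The group of each column came from the mouse number that its name shares with a sample title; the labels' description field pairs them differently and was tried as an alternative. GENCODE M21 matched 45229 of 46078 genes and gave symbols, positions and exon lengths; promoter windows came from RefSeq (GRCm38.p6).

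Genes were kept by filterByExpr (minimum count 10, minimum total 15), which left at least 99.88% of each library's counts. All 12 libraries were fitted with TMM factors (0.879 to 1.04) and the quasi-likelihood test of edgeR 4.0.16 in R 4.3.3; adjusted p-values were called at 0.05. Exact permutation tests used log2 CPM with a prior count of 2; 30 were run and not adjusted. DESeq2 1.42.0, other scalings, filters, RUVs and RUVr factors (k = 2, written out from their definitions) and leaving out each library were the alternatives. Intervals are at 95%, floors are 3 counts per library and cover counting error only, since reads had no molecular identifiers. Spearman rho between replicates of a group ranged from 0.963 to 0.992, and over the 66 pairs of libraries the lowest chi-square per gene was 16.8, where sampling noise alone gives about 1. Each library is labelled as 1 mouse. The methods were tested on simulated data. The 10 genes, the other gene lists and the tests were chosen with earlier results of these data known. Named genes are the 10 members, the listed genes that passed the threshold (1 of them is counted but not reported here), and the gene most correlated with each member where the mean log2 CPM was 1 or more.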

Additional observations from a re-analysis of the deposited data

Results flagged for a closer look

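In 5 of 78 sets of 4 mice (10 members and 16 called pathway genes in 3 groups), 1 mouse stood apart from the others by Dixon's criterion, which chance meets in about 1 of 20 sets. Abcb11 was 322 CPM in Sham-Ad lib mouse 10F, against 449 CPM or more in the other 3. Nr1h4 was 154 CPM in Sham-WM mouse 9F, against 123 CPM or less in the others. Nr0b2 was 35.8 CPM in VSG mouse 18F, against 18.1 CPM or less in the others. Cyp2c70 was 378 CPM in Sham-Ad lib mouse 10F, against 233 CPM or less, and Papss2 was 440.0 CPM in Sham-WM mouse 9F, against 347 CPM or less.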

How the results depend on the processing

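The alternatives gave 600 log2 fold changes of the 10 genes, of which 323 with 1 library left out and 213 others kept their direction and side of the threshold. Members called in VSG against Sham-Ad lib numbered 2 with DESeq2, without a filter and with RUVr factors, and 0 to 2 with each library left out; in Sham-WM against Sham-Ad lib 1 with RUVr factors and 0 to 1; in VSG against Sham-WM 2 with DESeq2 and its size factors, 3 with RUVr factors, 0 with upper quartile factors, with RUVs factors, with only the 2 groups compared and with groups by the description field, and 0 to 2. With the description field 0 genes of 13054 were called in any comparison. Other pathway genes called, recomputed after the data were seen, numbered 9, 3 and 13 in VSG against Sham-Ad lib with DESeq2, without a filter and with RUVr factors (0 to 4 with 1 library left out). In Sham-WM against Sham-Ad lib they numbered 10 with only the 2 groups compared, 12 with RUVs and 14 with RUVr factors (2 to 8), in VSG against Sham-WM 4 with RUVs factors (7 to 15), and 0 in both with the description field.

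Signs turned mostly for values near 0. With RUVs factors, log2 fold changes of VSG against Sham-Ad lib became 0.054 for Cyp27a1, 0.021 for Nr1h4, 0.31 for Abcb11 and 0.18 for Slc10a1, and of VSG against Sham-WM 0.075 for Cyp27a1, 0.24 for Klb, 0.24 for Abcb11 and 0.39 for Slc10a1. Fgfr4 was 0.010 in VSG against Sham-Ad lib with upper quartile factors. With RUVr factors Cyp27a1 was 0.016 in Sham-WM against Sham-Ad lib and Cyp7a1 -0.019 in VSG against Sham-WM. With 1 library left out, VSG against Sham-Ad lib ranged from -0.11 to 0.071 for Fgfr4, -0.18 to 0.45 for Cyp7b1, -0.27 to 0.062 for Nr1h4 and -0.30 to 0.043 for Abcb11, Sham-WM against Sham-Ad lib from -0.092 to 0.093 for Cyp27a1 and -0.61 to 0.022 for Cyp7b1, and VSG against Sham-WM from -0.12 to 0.23 for Cyp7a1 and -0.21 to 0.25 for Nr0b2; the cause was not tested. Fgfr4 in VSG against Sham-WM was not called with upper quartile factors (adjusted p = 0.0591), without a filter (0.058), with only the 2 groups compared (0.074) or with RUVs factors (0.30). No paired analysis was possible because mice of different groups share no number. With 4 mice per group, the intervals of Cyp7a1, Cyp8b1, Cyp7b1, Nr0b2 and Klb span more than 1 log2 unit in each comparison. Differences within an interval remained compatible with the data.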
